A study of Homo sapiens with 4 samples.

Results

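The liver-enriched transcription factors examined were HNF4A, FOXA1, FOXA2, FOXA3, CEBPA, CEBPB, ONECUT1 and PROX1, chosen by gene symbol as 8 of the 24462 symbols counted in HepG2, a human liver cancer cell line. All 8 were found, each was listed once, and all 8 had at least 10 reads in every comparison. HepG2 cells were grown in RPMI medium with fetal bovine serum and were treated with DMSO as control or with PD0332991, an inhibitor of the kinases CDK4 and CDK6, or were transfected with scrambled siRNA as control or with siRNAs to both kinases (CDK4/6 KD). Each condition was sequenced as 1 library by poly(A)-primed QuantSeq 3′ mRNA sequencing, in which reads gather near the 3′ end of a transcript and their number does not grow with transcript length. Neither the dose nor the times at which the sequenced cells were collected are given in the sources used here.

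Liver-enriched transcription factors act as a mutually connected network that opens and drives the genes of the hepatocyte. FOXA proteins can bind closed chromatin ahead of other factors, HNF4A is a nuclear receptor that activates a large share of liver genes, and C/EBP proteins link liver genes to growth arrest, fasting and inflammation. ONECUT1 (HNF6) and PROX1 act early in liver development and remain on in hepatocytes.

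Each condition had a single library, so differences could not be checked against replicates and no p-values are given. Levels are TMM-normalized CPM (reads scaled to a common library size), fold changes are ratios of these after adding 0.5 reads to each count, and 95% intervals are exact and cover counting error only, so they compare libraries and not conditions. PCR copies are not removed by them, since no molecular identifiers are described. The intervals narrow as reads grow, and shares of all genes given for patterns of intervals were not matched for reads. In bulk RNA, fewer cells that express a gene and less RNA per cell cannot be told apart. Library totals ran from 8983848 to 11176880 reads. The siRNA targets were reduced in the CDK4/6 KD library, with 3789 reads of CDK4 in scrambled siRNA against 814 in CDK4/6 KD and 5734 of CDK6 against 1464. All 12 hepatocyte markers, albumin among them, had at least 10 reads in each library, with a summed level of 21844 to 28380 CPM. Endothelial markers summed to 0.883 to 7.76 CPM with CDH5 at 0 in each library, and only LYVE1 passed 10 reads, with 78 in scrambled siRNA and 12 in DMSO. Cholangiocyte markers summed to 824 to 1710 CPM and leukocyte markers to 509 to 1035, with CFTR and CD3E at 0 throughout. Stellate cell and fibroblast markers summed to 133 CPM in DMSO, 245 in PD0332991, 129 in scrambled siRNA and 149 in CDK4/6 KD. Keratinocyte markers stood at 2.52 CPM in DMSO, 56.6 in PD0332991, 7.66 in scrambled siRNA and 12.9 in CDK4/6 KD. A list of 10 proliferation genes summed to 4467 CPM in DMSO, 554 in PD0332991, 3216 in scrambled siRNA and 1369 in CDK4/6 KD. The part of these lists in the results below was not tested.

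The 8 factors did not move as a group. HNF4A and CEBPB were higher in both CDK4/6-inhibited libraries than in either control library. For HNF4A the difference in CDK4/6 KD was small (fold change: 1.09 against scrambled siRNA and 1.10 against DMSO). These fold changes exceeded those of 58.5% and 59.5% of all genes. FOXA2 varied least, from 121 to 141 CPM. FOXA1, CEBPA, CEBPB, ONECUT1 and PROX1 had their lowest level in the scrambled siRNA library, and FOXA3 its highest, so that the direction of several of them depended on which control was used. The controls are not interchangeable, since scrambled siRNA cells were transfected and DMSO cells are described only as treated with DMSO. Against the control of the other arm, inhibition and transfection therefore cannot be told apart.

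**Figure D1:**
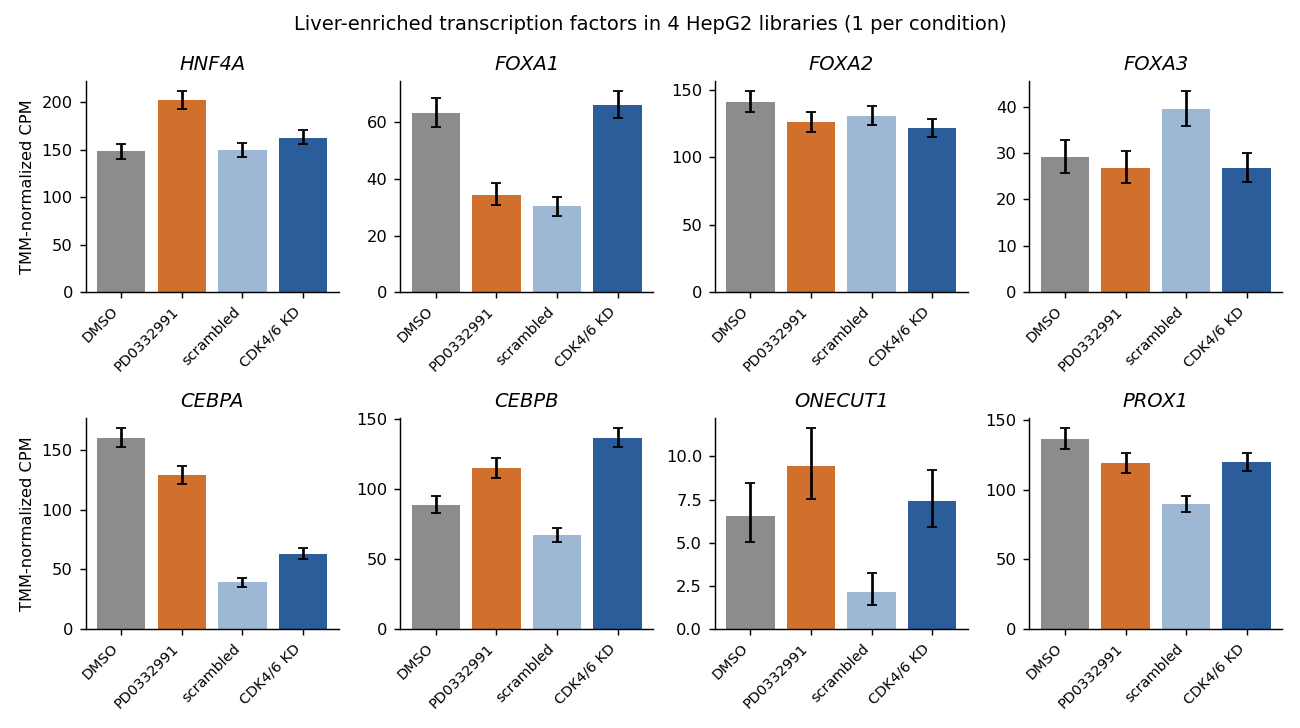
Level of each factor (TMM-normalized CPM, linear axis from 0) in the 4 libraries. Bars are single libraries and error bars are exact 95% Poisson intervals of the counts. FOXA2 stayed between 121 and 141 CPM, while CEBPA ran from 39.1 CPM in scrambled siRNA to 160 in DMSO.

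HNF4A, a nuclear receptor regarded as a central regulator of hepatocyte identity, lies on chromosome 20 from 44355700 to 44434596 on the plus strand (ENSG00000101076, GRCh38, GENCODE 29). It had 1356 reads in DMSO, 1843 in PD0332991, 1597 in scrambled siRNA and 1844 in CDK4/6 KD, or 148, 202, 149 and 163 CPM. PD0332991 was the highest library, and the control libraries lay together, since their ratio had an interval that held 1 (ratio of scrambled siRNA over DMSO: 1.01, 95% interval 0.935 to 1.08). HNF4A was therefore higher after PD0332991 against either control (fold change: 1.36 against DMSO, interval 1.27 to 1.46, and 1.36 against scrambled siRNA, interval 1.27 to 1.45). In CDK4/6 KD the difference was smaller (fold change: 1.09 against scrambled siRNA, interval 1.02 to 1.17, and 1.10 against DMSO, interval 1.02 to 1.18), and it was lower there than in PD0332991 (fold change: 0.805, interval 0.754 to 0.859).

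HNF4A is transcribed from 2 promoters, a distal start (P2) and a start nearer the gene body (P1), whose products differ at the N terminus. GENCODE 29 lists 8 coding transcripts of the gene with 7 different 3′ ends, and reads counted per symbol near 3′ ends do not separate the starts, so the counts above hold both. The 250 bases before each start listed by RefSeq (GRCh38.p14, plus strand) are shown because both feed the same count and because they carry matches to the core motif of another of the 8 factors. Capitals mark matches to ATTGAT, the core bound by ONECUT1 (HNF6), on either strand.
HNF4A distal start, chr20:44355449-44355698: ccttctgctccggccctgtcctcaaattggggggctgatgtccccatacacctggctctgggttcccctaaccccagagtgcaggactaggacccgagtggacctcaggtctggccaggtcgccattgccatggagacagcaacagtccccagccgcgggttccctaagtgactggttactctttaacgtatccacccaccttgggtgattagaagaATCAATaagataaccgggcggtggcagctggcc
HNF4A proximal start, chr20:44400989-44401238: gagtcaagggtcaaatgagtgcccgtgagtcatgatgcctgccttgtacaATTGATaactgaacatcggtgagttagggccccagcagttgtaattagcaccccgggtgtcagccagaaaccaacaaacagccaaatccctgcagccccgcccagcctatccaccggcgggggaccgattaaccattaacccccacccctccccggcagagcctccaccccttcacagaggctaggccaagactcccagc
The distal window held 1 ATTGAT match on the opposite strand, 33 to 28 bases before the start. The proximal window held ATTGAT on the gene strand, 200 to 195 bases before the start. Of 35116 RefSeq windows of this length, 5.58% held ATTGAT on either strand. A match is a string of letters, and binding was not measured. RefSeq windows were at hand for 6 of the 8 factors (not for FOXA2 and PROX1), and the windows of FOXA1, FOXA3, CEBPA, CEBPB and ONECUT1 held none of the motifs searched, which besides ATTGAT were TGTTTAC (FOXA, in 2.98% of windows), CAAAGTC (HNF4, 2.91%), TTGCGCA (C/EBP, 1.62%) and TTTCGCG or TTTGGCG (E2F, 2.65%).

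The FOXA genes encode forkhead proteins with closely similar DNA-binding domains and partly shared liver targets. FOXA1 (chromosome 14 from 37589984 to 37596059, minus strand) had 578 reads in DMSO, 313 in PD0332991, 324 in scrambled siRNA and 749 in CDK4/6 KD, or 63.3, 34.4, 30.3 and 66.2 CPM. The libraries fell into a high pair, CDK4/6 KD and DMSO, and a low pair, PD0332991 and scrambled siRNA, and within each pair the interval of the ratio held 1. FOXA1 was thus 2.18-fold above scrambled siRNA in CDK4/6 KD (interval 1.92 to 2.50) but near DMSO (fold change: 1.05, interval 0.937 to 1.17), and it was lower after PD0332991 than in DMSO (fold change: 0.544, interval 0.472 to 0.625) but near scrambled siRNA (fold change: 1.14, interval 0.969 to 1.33). Its 2 arms differed in sign, by 2.01 on the log2 scale (95% counting interval 1.73 to 2.28), the largest difference of the 8 factors. The arms' difference includes the gap between the control libraries, where FOXA1 was lower in scrambled siRNA (fold change: 0.479, interval 0.416 to 0.549).

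FOXA2 (chromosome 20 from 22581005 to 22585455, minus strand) had 1289 reads in DMSO, 1147 in PD0332991, 1399 in scrambled siRNA and 1375 in CDK4/6 KD, or 141, 126, 131 and 121 CPM. Ordered by level, no neighbouring libraries differed beyond counting error, and the fold changes were 0.929 in CDK4/6 KD (interval 0.862 to 1.00) and 0.893 after PD0332991 (interval 0.824 to 0.968). Between the ends of that order, CDK4/6 KD was below DMSO (fold change: 0.861, interval 0.797 to 0.93). These small differences depended on the scaling, as the interval after PD0332991 held 1 with quantile normalization (0.853 to 1.00) and that between the controls left it out with DESeq2's size factors (0.855 to 0.997). A further protein-coding entry of GENCODE 29, AL121722.1, overlaps the last 500 bases of FOXA2 on the same strand, and how the authors assigned such reads is not stated. LINC00261, a long noncoding RNA gene next to FOXA2, was less level than its neighbour, with 924 reads in DMSO, 799 in PD0332991, 710 in scrambled siRNA and 1307 in CDK4/6 KD (a ratio of 1.74 in the siRNA arm, interval 1.59 to 1.91, and 0.868 after PD0332991, interval 0.788 to 0.955).

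FOXA3 (chromosome 19 from 45863989 to 45873797, plus strand) had 266 reads in DMSO, 244 in PD0332991, 422 in scrambled siRNA and 303 in CDK4/6 KD, or 29.1, 26.8, 39.4 and 26.8 CPM. Scrambled siRNA stood above the other 3 libraries, whose neighbours in order of level did not differ beyond counting error. FOXA3 was below scrambled siRNA in CDK4/6 KD (ratio: 0.679, interval 0.584 to 0.789), and the intervals after PD0332991 (fold change: 0.921, interval 0.771 to 1.10) and of CDK4/6 KD against DMSO (fold change: 0.92, interval 0.777 to 1.09) held 1.

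Summed over the 3 genes, FOXA reads stood at 233 CPM in DMSO, 187 in PD0332991, 200 in scrambled siRNA and 214 in CDK4/6 KD. Their make-up differed. Shares within a family need no library scaling, and since poly(A)-primed reads do not grow with length they compare read numbers between genes, although priming can differ by gene. FOXA2 gave most FOXA reads in each library, from 56.7% in CDK4/6 KD (95% Clopper-Pearson interval 54.7 to 58.6) to 67.3% in PD0332991 (interval 65.0 to 69.5). FOXA1 gave 27.1% in DMSO (interval 25.2 to 29.04), 18.4% in PD0332991 (interval 16.6 to 20.3), 15.1% in scrambled siRNA (interval 13.6 to 16.7) and 30.9% in CDK4/6 KD (interval 29.03 to 32.7). FOXA3 gave 12.5% to 14.3% in the other libraries and 19.7% in scrambled siRNA (interval 18.01 to 21.4).

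**Figure D2:**
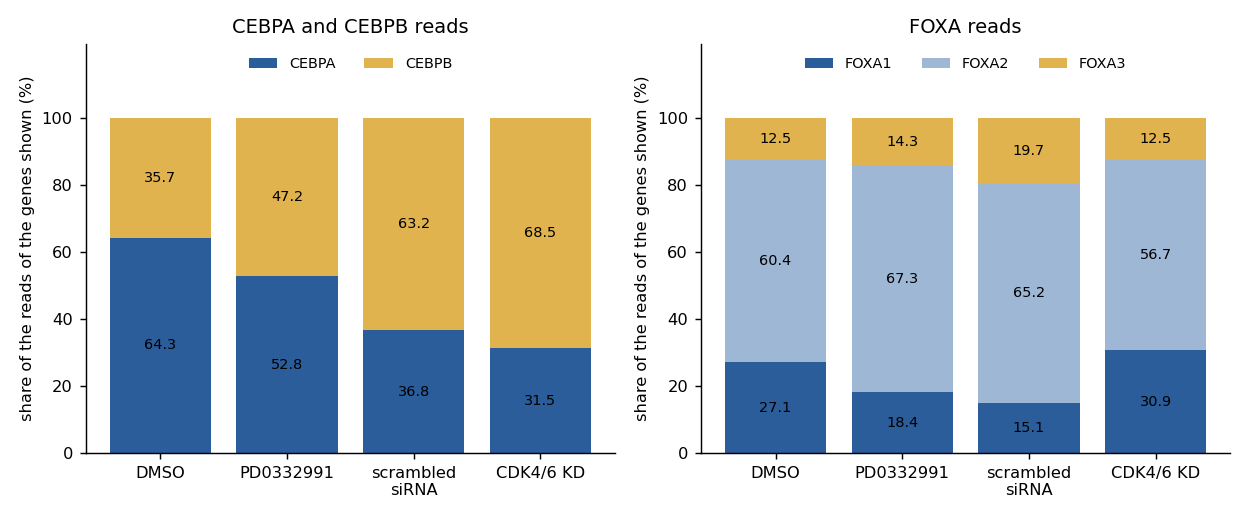
Share of the reads of CEBPA and CEBPB (left) and of the 3 FOXA genes (right) taken by each gene in each library, in percent. CEBPA has 64.3% of the reads of the pair in DMSO and 31.5% in CDK4/6 KD, and FOXA1 takes its smallest share, 15.1%, in scrambled siRNA.

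CEBPA encodes C/EBPα, which is linked to differentiation and growth arrest of hepatocytes, and lies on chromosome 19 from 33299934 to 33302564 on the minus strand. It had 1466 reads in DMSO, 1174 in PD0332991, 418 in scrambled siRNA and 712 in CDK4/6 KD, or 160, 129, 39.1 and 62.9 CPM. Ordered by level, all 4 libraries differed from their neighbours beyond counting error, and both siRNA libraries lay below both others, a pattern held by CEBPA alone of the 8 factors and by 4.71% of the 13961 genes with at least 10 reads in any library. Between the controls, CEBPA had the widest gap of the 8, scrambled siRNA being the lower (fold change: 0.244, interval 0.218 to 0.272).
The CEBPA start is GC-rich (81.2% of the 250 bases shown, against a median of 58% over all RefSeq windows), and the window is given because no other factor differed as much between the control libraries. It has no capitals, since none of the motifs was found.
CEBPA start, chr19:33302535-33302784 (GRCh38.p14, minus strand): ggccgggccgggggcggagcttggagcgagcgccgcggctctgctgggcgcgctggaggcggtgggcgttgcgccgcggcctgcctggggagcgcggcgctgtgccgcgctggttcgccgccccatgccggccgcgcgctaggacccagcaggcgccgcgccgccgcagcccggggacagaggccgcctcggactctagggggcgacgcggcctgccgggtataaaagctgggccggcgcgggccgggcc
The arms had opposite directions, as CEBPA was above scrambled siRNA in CDK4/6 KD (ratio: 1.61, interval 1.43 to 1.82) and lower after PD0332991 than in DMSO (fold change: 0.804, interval 0.744 to 0.868). Both turned with the control of the other arm, to 0.392 for CDK4/6 KD against DMSO (interval 0.358 to 0.429) and to 3.30 for PD0332991 against scrambled siRNA (interval 2.95 to 3.70). An antisense gene of GENCODE 29, AC008738.3, overlaps the last 500 bases of CEBPA, and whether the authors' counting used strand is not stated. CEBPA-AS1, a noncoding neighbour not listed under that symbol among the genes overlapping CEBPA, was ordered differently. It had its most reads, 210, in CDK4/6 KD (fold change: 1.38 against scrambled siRNA, interval 1.11 to 1.72), and its intervals after PD0332991 and between the controls held 1.

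CEBPB encodes C/EBPβ, a basic leucine zipper protein of the acute phase and of liver regeneration (chromosome 20 from 50190734 to 50192689, plus strand). It had 813 reads in DMSO, 1049 in PD0332991, 718 in scrambled siRNA and 1551 in CDK4/6 KD, or 89, 115, 67.1 and 137 CPM. Both inhibited libraries lay above both controls, and each step in order of level exceeded counting error. The fold change in CDK4/6 KD was 2.04 against scrambled siRNA (interval 1.87 to 2.23) and 1.54 against DMSO (interval 1.41 to 1.68), and after PD0332991 it was 1.29 against DMSO (interval 1.18 to 1.42) and 1.72 against scrambled siRNA (interval 1.56 to 1.89). CEBPB and HNF4A were the 2 of 8 factors for which all 4 such intervals lay above 1, against a background of 7.01% of 13961 genes. For HNF4A the lower limits in CDK4/6 KD were only 1.02 against either control. None of the 8 had all 4 below 1, where the background was 9.71%. These background shares were not matched for reads, on which the width of an interval depends. The 4 ratios of a gene share libraries and are not independent of each other.

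The balance of CEBPA and CEBPB differed in every library. CEBPA gave 64.3% of the reads of the pair in DMSO (95% Clopper-Pearson interval 62.3 to 66.3), 52.8% in PD0332991 (interval 50.7 to 54.9), 36.8% in scrambled siRNA (interval 33.98 to 39.7) and 31.5% in CDK4/6 KD (interval 29.6 to 33.4). In both arms the inhibited library had the smaller CEBPA share of the pair, and the 2 siRNA libraries had less than the 2 others. The sum of both genes was 249 CPM in DMSO, 244 in PD0332991, 106 in scrambled siRNA and 200 in CDK4/6 KD, the lowest being scrambled siRNA. With CEBPD and CEBPG, 2 further C/EBP genes, CEBPA gave 45.4% of the reads of the 4 genes in DMSO (interval 43.7 to 47.1) and 38.3% in PD0332991 (interval 36.6 to 40.1). In the siRNA libraries the intervals of its share of the 4 overlapped, at 20.04% in scrambled siRNA (interval 18.3 to 21.8) and 20.9% in CDK4/6 KD (interval 19.6 to 22.3), so the gap between these libraries in the share of the pair was not seen in that of the 4. CEBPD, an acute-phase C/EBP gene, was ordered unlike CEBPA and CEBPB, with 347 reads in DMSO, 372 in PD0332991, 541 in scrambled siRNA and 327 in CDK4/6 KD. It was above DMSO in scrambled siRNA (ratio: 1.33, interval 1.16 to 1.53).

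ONECUT1 (HNF6), a homeodomain factor of liver and bile duct development, was the least counted of the 8 (chromosome 15 from 52756989 to 52791078, minus strand). It had 60 reads in DMSO, 86 in PD0332991, 23 in scrambled siRNA and 84 in CDK4/6 KD, or 6.57, 9.44, 2.15 and 7.42 CPM. Scrambled siRNA was the low library, and neighbours among the other 3 in order of level did not differ beyond counting error. ONECUT1 had the largest fold change of the 8 in CDK4/6 KD (3.40 against scrambled siRNA, interval 2.16 to 5.74), with 1.13 against DMSO (interval 0.802 to 1.60), and after PD0332991 the values were 1.43 against DMSO (interval 1.02 to 2.03) and 4.32 against scrambled siRNA (interval 2.75 to 7.30). Its paralog ONECUT2 was more counted and nearer level, with 816 reads in DMSO, 880 in PD0332991, 776 in scrambled siRNA and 661 in CDK4/6 KD.

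PROX1, a homeodomain factor of hepatocyte and lymphatic endothelial development that also acts as a corepressor of HNF4A, lies on chromosome 1 from 213983181 to 214041502 on the plus strand. It had 1249 reads in DMSO, 1083 in PD0332991, 961 in scrambled siRNA and 1354 in CDK4/6 KD, or 137, 119, 89.8 and 120 CPM. DMSO was highest, the inhibited libraries were level with each other (fold change of CDK4/6 KD to PD0332991: 1.01, interval 0.928 to 1.09), and scrambled siRNA was lowest. PROX1 was therefore above scrambled siRNA in CDK4/6 KD (ratio: 1.33, interval 1.23 to 1.45) and below DMSO in CDK4/6 KD (ratio: 0.875, interval 0.81 to 0.946) and after PD0332991 (fold change: 0.87, interval 0.801 to 0.945). Its antisense gene PROX1-AS1 had 1 read in DMSO and 12 or 13 in each other library. Of 8 noncoding genes near the factors, 6 were in the count files, of which 4 had at least 10 reads in either arm and 3 between the controls. CEBPB-AS1 passed this minimum in both arms only through the library where it was higher. So did PROX1-AS1 after PD0332991 and between the controls, and no medians are given. None was past 2-fold in CDK4/6 KD (9.19% of all genes higher and 7.62% lower). PROX1-AS1 was at least 2-fold higher after PD0332991 (7.49% of all genes) and in scrambled siRNA against DMSO (5.30%). CEBPB-AS1 was at least 2-fold higher after PD0332991 on 15 reads against 7, with an interval that held 1 (0.825 to 6.23).

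Read as a set, 3 of the 8 factors (FOXA1, CEBPB and ONECUT1) were at least 2-fold above scrambled siRNA in CDK4/6 KD, where 9.19% of 13617 genes were, and 0 were at least 2-fold lower (background 7.62%). The median log2 fold change of the 8 was 0.55, against -0.0036 over all genes. After PD0332991, 0 of 8 were at least 2-fold higher (background 7.49% of 13443 genes) and 0 at least 2-fold lower (7.06%), while at 1.5-fold 1 was lower, FOXA1 (15.1%), and the median was -0.14 against 0.018 over all genes. Between the control libraries, 3 of 8 (FOXA1, CEBPA and ONECUT1) were at least 2-fold below DMSO in scrambled siRNA, where 6.64% of 13303 genes were, 0 were at least 2-fold higher (5.30%), and the median was -0.51 against 0.0088. Intervals left out 1 for 7 of 8 factors in CDK4/6 KD (61.9% of all genes), for 7 after PD0332991 (56.7%) and for 6 between the controls (56.3%). HNF4A, CEBPB and ONECUT1 were higher in both arms with intervals above 1, 3 of 8 factors against 11.8% of 13099 genes, and 0 were lower in both (14.2%). The lower limits of HNF4A in CDK4/6 KD and of ONECUT1 after PD0332991 were each 1.02. FOXA1, CEBPA and PROX1 were higher in the siRNA arm and lower in the PD0332991 arm, 3 of 8 against 6.37%. ONECUT1 had a higher CPM than 51.6% to 62.2% of all symbols per library and HNF4A than 94.1% to 96.3%. Whether an interval leaves out 1 depends on the number of reads as well as on the fold change. The shares of all genes by interval were not matched for reads and include genes counted less than most of these factors.

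**Figure D3:**
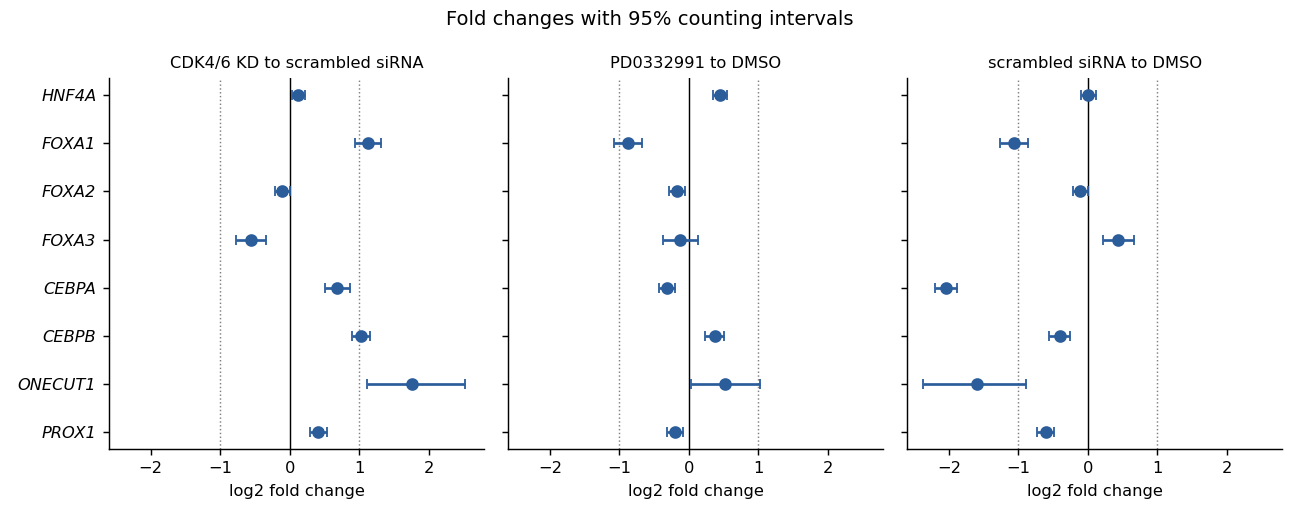
Log2 fold change of each factor in the 3 comparisons, with exact 95% counting intervals; the dotted lines mark 2-fold. FOXA1, CEBPB and ONECUT1 lie past the upper line in CDK4/6 KD, none passes a line after PD0332991, and FOXA1, CEBPA and ONECUT1 lie past the lower line between the controls.

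The comparison of CDK4/6 KD with scrambled siRNA and that of scrambled siRNA with DMSO share the scrambled siRNA library, so a low count in it enters both with opposite signs. Scrambled siRNA was below each of the 3 other libraries beyond counting error for CEBPA, CEBPB, ONECUT1 and PROX1, 4 of 8 factors against 10.2% of 13961 genes, and above each of them for FOXA3 (background 11.8%). These background shares were not matched for reads, so the contrast with well-counted factors may be overstated. By CPM, scrambled siRNA was the lowest library for 5 of 8, against 26.5% of genes. Markers of other cell types differed in the same library. The cholangiocyte and leukocyte sums were highest there (1710 and 1035 CPM), each mostly through a single gene, KRT19 (12181 reads against 2796 to 6122 elsewhere) and LYZ (10932 against 4587 to 6780). Other markers of these lists were lower there than in DMSO, namely SOX9 (ratio: 0.781, interval 0.735 to 0.83), EPCAM (ratio: 0.868, interval 0.81 to 0.931) and CD14 (4 reads against 20), and the cholangiocyte median was -0.039 on the log2 scale. Higher there than in DMSO were SPP1 (ratio: 1.09, interval 1.03 to 1.16) and CD68 (ratio: 1.55, interval 1.16 to 2.08). LYVE1 was higher (ratio: 5.38, interval 3.004 to 11.2), and COL1A1 had 73 reads there against 332 in DMSO. Of 4 stellate cell and fibroblast markers with enough reads, 3 had intervals below 1 and 1 above. The latter was ACTA2, with 1288 reads against 808 (ratio: 1.36, interval 1.25 to 1.49). After PD0332991, KRT14 had 249 reads against 9 in DMSO, KRT6A 150 against 9 and KRT5 113 against 2. The remaining keratinocyte markers did not differ, with 1 read of TP63 and 2 of DSG3 in each of these libraries. The part of these markers in the factors' counts was not tested.

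Against DMSO instead, 0 of 8 factors were at least 2-fold higher in CDK4/6 KD (8.04% of 13512 genes) and 1, CEBPA, was at least 2-fold lower (8.16%), with a median log2 fold change of -0.03. In that comparison the libraries differ in siRNA transfection as well as in inhibition.

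**Figure D4:**
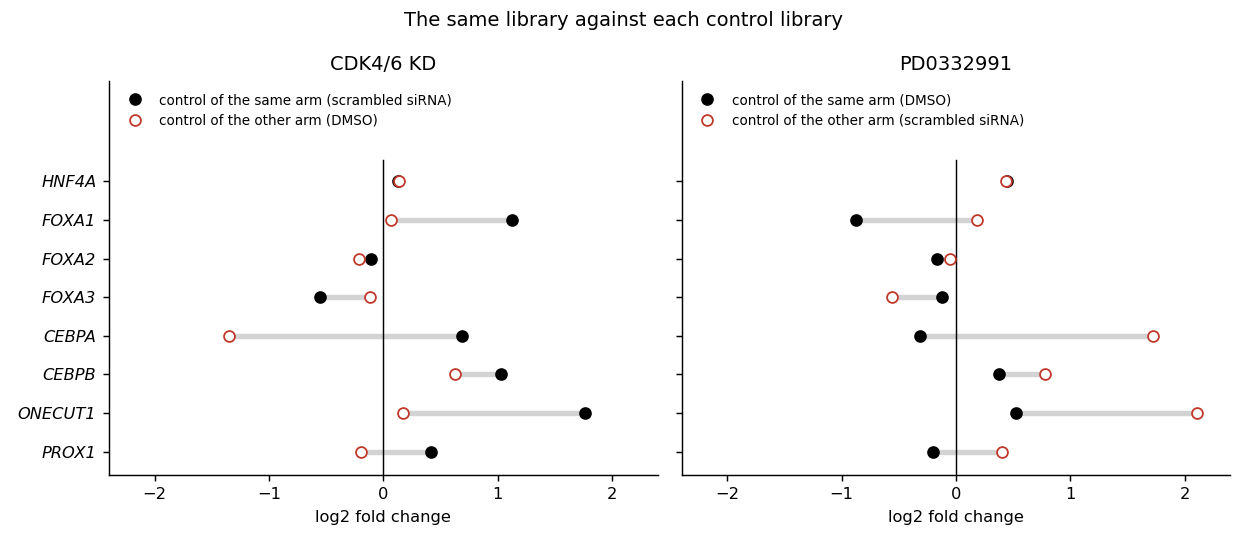
Log2 fold change of CDK4/6 KD (left) and PD0332991 (right) for each factor against the control of its own arm (filled) and of the other arm (open), joined by a grey line. HNF4A, FOXA2, FOXA3, CEBPB and ONECUT1 keep their side of 0 in both panels, CEBPA and PROX1 cross it in both, and FOXA1 crosses it for PD0332991.

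Other liver factors and nuclear receptors that act with these 8 were followed as a list of 24 genes (background shares as above). In CDK4/6 KD, 2 of the 22 with enough reads were at least 2-fold higher and 1 lower, with a median log2 fold change of 0.17. The higher ones were NR1H4, the bile acid receptor FXR (337 reads against 79 in scrambled siRNA, with 257 in DMSO and 277 in PD0332991, which is 4.01-fold, interval 3.15 to 5.22), and NR2F2, which encodes COUP-TFII (1955 against 754, with 1501 and 1193; fold change: 2.45, interval 2.25 to 2.67). NR1H4 and NR2F2 were lowest in scrambled siRNA, as FOXA1, CEBPA and ONECUT1 were (fold changes of scrambled siRNA to DMSO: 0.264 and 0.429). NR5A2, the receptor LRH-1, was the lower gene, with 29 reads in DMSO, 42 in PD0332991, 102 in scrambled siRNA and 29 in CDK4/6 KD (0.272 times the level in scrambled siRNA, interval 0.171 to 0.409). RXRA, the shared partner of many nuclear receptors, was higher in both arms (ratios of 1.78 and 1.40).

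After PD0332991, 1 of 23 partner factors, NR1I3, was at least 2-fold higher, on 2 reads in DMSO and 11 in PD0332991, 0 were lower, and the median was 0.28. MLXIPL (ChREBP), a glucose-responsive factor of glycolysis and fat synthesis, had a fold change of 1.67 (interval 1.59 to 1.74), and NR0B2 (SHP), a corepressor, had 1.55 (interval 1.39 to 1.73). Between the controls, 2 of 22 were at least 2-fold higher in scrambled siRNA and 2 lower, with a median of -0.29. The higher were NR5A2 and NR0B2, and the lower were NR1H4 and NR2F2. NR2F1, which encodes COUP-TFI, had 840 reads in scrambled siRNA against 1023 in DMSO (ratio: 0.701, interval 0.639 to 0.769).

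C/EBP relatives and genes that modify C/EBP activity were followed next (background shares as for the partner factors). TRIB1, a pseudokinase adaptor through which C/EBPα protein is degraded, had 592 reads in DMSO, 662 in PD0332991, 1419 in scrambled siRNA and 448 in CDK4/6 KD (a ratio of 0.299 in the siRNA arm, interval 0.268 to 0.332, and 2.05 between the controls, interval 1.86 to 2.26). Its order across libraries was unlike that of CEBPA, although scrambled siRNA was the extreme library for both. ATF4, a stress factor that pairs with C/EBP proteins, had 5287 reads in DMSO, 12312 in PD0332991, 10575 in scrambled siRNA and 15168 in CDK4/6 KD (a ratio of 2.34 after PD0332991, interval 2.26 to 2.41). DDIT3 (CHOP), a C/EBP protein that blocks others by pairing with them, was higher in both arms (1.46-fold against scrambled siRNA and 1.93-fold against DMSO). Of the 8 genes listed, 7 had enough reads, of which 1 was at least 2-fold higher and 1 lower in CDK4/6 KD (TRIB2 and TRIB1; median 0.44), and 1 higher and 0 lower after PD0332991 (ATF4; median 0.54). Between the controls 1 was higher, TRIB1, and 0 lower, with a median of 0.75.

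Coregulators of these factors, such as EP300 and CREBBP, made up a list of 12. For these and the forkhead genes below, the background was 9.19% higher and 7.62% lower in CDK4/6 KD. It was 7.49% and 7.06% after PD0332991, and 5.30% and 6.64% between the controls. In CDK4/6 KD 0 were at least 2-fold higher and 1 lower, PPARGC1B, on 6 reads against 15 (median 0.17), and 0 were past 2-fold after PD0332991 (median -0.06). Between the controls 0 were higher and 1 lower, PPARGC1A (median -0.37). MED1, a Mediator subunit contacted by nuclear receptors, was higher in CDK4/6 KD (fold change: 1.58, interval 1.497 to 1.66). The other 41 forkhead genes had 18 with enough reads, of which 1 was at least 2-fold higher and 1 lower in each of the 3 comparisons, with medians of -0.06, 0.06 and -0.24. These were FOXJ1 (63 reads against 3) and FOXP4 (118 against 274) in CDK4/6 KD, FOXO6 (14 against 6) and FOXM1 (128 against 593) after PD0332991, and FOXD2 (21 against 8) and FOXJ1 (3 against 51) between the controls. FOXM1, a forkhead factor of mitosis, was also below scrambled siRNA in CDK4/6 KD (319 reads against 504; fold change: 0.599, interval 0.518 to 0.69).

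Known targets of the factors were examined as 3 lists that overlap, since liver promoters bind several factors. For comparison, the background past 2-fold in CDK4/6 KD was 9.19% upward and 7.62% downward. The corresponding shares after PD0332991 were 7.49% upward and 7.06% downward. Of 24 HNF4A targets, 20 had enough reads; 5 were at least 2-fold higher and 1 lower in CDK4/6 KD (median 0.36), and 4 higher and 0 lower after PD0332991 (median 0.52). F7, coagulation factor VII, was higher in both arms (998 reads against 209 in scrambled siRNA and 500 against 204 in DMSO; fold changes of 4.51 and 2.46), and so was APOC3, an apolipoprotein of triglyceride-rich particles, with 2229 reads in DMSO, 4331 in PD0332991, 2875 in scrambled siRNA and 7850 in CDK4/6 KD. Between the controls, the interval of F7 held 1 (fold change: 0.875, interval 0.718 to 1.07) and that of APOC3 lay just above it (fold change: 1.10, interval 1.04 to 1.16). The other genes past 2-fold in CDK4/6 KD were CYP7A1, the rate-limiting enzyme of bile acid synthesis (79 reads against 1), CYP8B1 (89 against 26) and LIPC (974 against 430), which were higher, and BAAT (108 against 362), which was lower. After PD0332991 they were G6PC, the last enzyme of glucose release (67 against 12), PKLR (413 against 192) and SHBG (67 against 15). Of 12 FOXA targets, 11 had enough reads, of which 3 were at least 2-fold higher and 1 lower in CDK4/6 KD (median 0.34) and 2 higher and 0 lower after PD0332991 (median 0.33). IGFBP1, an insulin-repressed binding protein, had 1376 reads in DMSO, 4282 in PD0332991, 4333 in scrambled siRNA and 139 in CDK4/6 KD, so that its arms had opposite signs. It was the lower FOXA target in CDK4/6 KD, where ALB, TAT (37 reads against 16) and CYP7A1 were the higher ones, and with G6PC it was a higher one after PD0332991. CYP7A1 passed the minimum of reads in the siRNA arm only through CDK4/6 KD. It is counted there among the higher HNF4A and FOXA targets and enters both medians.

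Of 16 C/EBP targets, 9 had enough reads in CDK4/6 KD, of which 4 were at least 2-fold higher (HP, FGB, ALB and TAT) and 0 lower (median 0.70), and 11 after PD0332991, of which 1, G6PC, was higher and 0 lower (median 0.17). Haptoglobin (HP) had 2293 reads in DMSO, 2034 in PD0332991, 850 in scrambled siRNA and 2830 in CDK4/6 KD (a ratio of 3.15 in the siRNA arm, interval 2.91 to 3.40). ALB, which C/EBP and FOXA proteins both activate, had 30328, 27771, 27539 and 58465 reads in the same order (fold change: 2.01 in CDK4/6 KD, interval 1.98 to 2.04). Between the controls, 0 of 11 C/EBP targets were at least 2-fold higher and 3 lower in scrambled siRNA, HP, HAMP and G6PC (median -0.78), the lowest median of the 3 target lists, beside 0.15 for the HNF4A targets (2 higher, BAAT and SHBG, and 1 lower, G6PC, of 20) and 0.16 for the FOXA targets (1 higher, IGFBP1, and 1 lower, G6PC, of 11). HAMP and G6PC passed the minimum between the controls only through DMSO. Both are among the 3 lower C/EBP targets and enter the median of -0.78, and G6PC is also the lower HNF4A and FOXA target. In scrambled siRNA and CDK4/6 KD, HAMP had 0 and 1 reads and G6PC 2 and 1, so neither was counted in CDK4/6 KD. The C/EBP target medians of these comparisons therefore cover different genes. As background to the target counts, the upward 2-fold share was 9.19% in CDK4/6 KD, 7.49% after PD0332991 and 5.30% between the controls. The downward 2-fold share was 7.62%, 7.06% and 6.64% in the same order. ORM1 and ORM2, on the C/EBP list, are near-identical copies whose reads may be divided uncertainly.

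**Figure D5:**
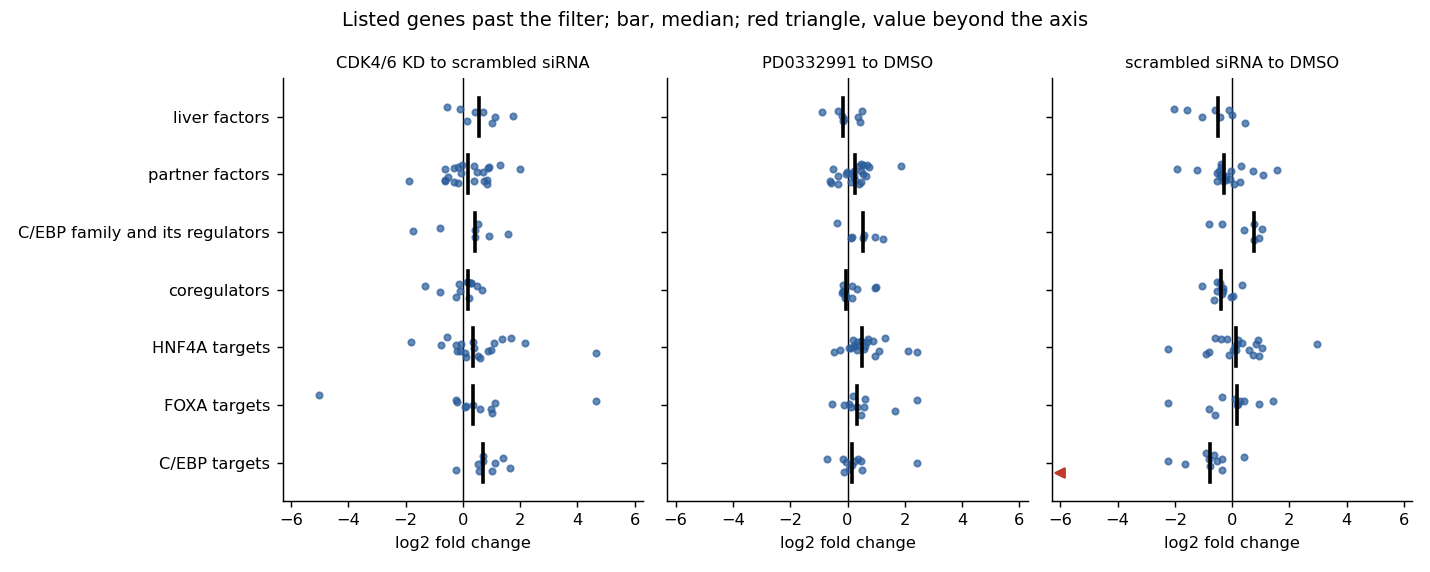
Log2 fold changes of the 8 liver factors and of the listed genes that passed the minimum of 10 reads, in the 3 comparisons; points are genes, vertical bars are list medians, and genes with 3 reads or fewer in a library are drawn with that count set to 3. C/EBP targets have their highest median in CDK4/6 KD (0.70) and their lowest between the controls (-0.78), where the red triangle is HAMP, with 655 reads in DMSO and 0 in scrambled siRNA. HAMP and G6PC have too few reads to be drawn in CDK4/6 KD, and they enter the median between the controls only through their reads in DMSO.

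The genes with the most similar pattern over the 4 libraries were found by the distance between mean-centred log2 CPM values among 9792 genes with at least 50 reads in each library (9793 for ONECUT1). With 4 values per gene, such neighbours are a description. They were ZNF692 and RPS19 for HNF4A (distances of 0.019 and 0.03, against a median of 0.637 over all genes), AUH and NANP for FOXA1 (0.057 and 0.186, against 1.15), and SMAD9 and ZMIZ1 for CEBPA (0.237 and 0.322, against 1.72). CEBPB was nearest to CLEC16A and C1orf106, ONECUT1 to ADGRG1 and SHANK2, PROX1 to ADGRA3 and MGAT4A, FOXA2 to TMOD1 and CEBPZOS, and FOXA3 to NKIRAS2 and IWS1. Among the 8 factors themselves, FOXA2 and PROX1 were the closest pair (0.428) and FOXA3 and ONECUT1 the farthest (2.08).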

How the data were processed

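HepG2 RNA was sequenced single-end on a NextSeq 500 from 4 QuantSeq 3′ libraries, 1 per condition, as titled by the submitters. The values the authors deposited are raw counts of reads by gene symbol, neither normalized nor pooled. The submitters' processing notes name hg19, Bowtie2 and edgeR, and the counter, annotation and strand setting are not given in the sources used here. Of 25737 entries, 286 symbols were repeated and were summed. Library sizes were corrected by TMM (edgeR 4.0.16, R 4.3.3). Ratios used a pseudocount of 0.5 reads and a minimum of 10 reads in 1 of the libraries compared. Their 95% intervals divide the reads of a pair of libraries by Clopper-Pearson limits (scipy 1.17.1), and those of the arms' difference are Wald intervals. With single libraries no model of replicate spread was fitted. The procedure was tested on simulated data.

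The factors and gene lists were chosen with earlier results of these data known. Genes named by rule were the 8 factors, CDK4 and CDK6, noncoding neighbours, the 2 most similar patterns per factor and, for each list, at most 3 genes on the side of the median, taken by how far the near end of the interval lay from 1. Genes named beside counts of 5 or fewer, and ONECUT2, CEBPD, APOC3 and markers of other cell types in some comparisons, were chosen after their values were seen. Alternatives were DESeq2 1.42.0 size factors, total counts, quantile normalization (limma 3.58.1), a pseudocount of 5 reads, no filter or one of 50 reads, the most counted of repeated entries, other controls, other thresholds and, added after the data were examined, removal of a GC trend (lowess, statsmodels 0.14.6, last 500 transcript bases, GENCODE 29, 88.3% to 88.6% of genes). Gene positions are from GENCODE 29 on GRCh38, matched by symbol. Sequences are RefSeq windows of GRCh38.p14. Some genes of the lists and a motif are not reported here.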

Additional observations from a re-analysis of the deposited data

Results flagged for a closer look

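FOXA1, CEBPA and PROX1 stood above scrambled siRNA in CDK4/6 KD and below DMSO after PD0332991, with both counting intervals leaving out 1. This pattern was held by 6.37% of 13099 genes, a share that was not matched for reads. The log2 fold changes were 1.13 and -0.88 for FOXA1, 0.69 and -0.32 for CEBPA, and 0.41 and -0.20 for PROX1. The differences between the arms were 2.01 (95% counting interval 1.73 to 2.28), 1.00 (interval 0.795 to 1.21) and 0.614 (interval 0.447 to 0.781). With 1 library per condition, these differences were not tested, and the scrambled siRNA and DMSO libraries themselves differed for these genes, by log2 fold changes of -1.06, -2.04 and -0.61.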

How the results depend on the processing

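Of 24 fold changes of the 8 factors in 3 comparisons, all 24 kept their value within the counting interval with DESeq2's size factors, quantile normalization, a pseudocount of 5 reads, repeated symbols read from their most counted entry, no filter and a filter of 50 reads. With total counts, which shifted the median of all genes in CDK4/6 KD to 0.10 on the log2 scale, HNF4A moved to 0.23. With the GC trend removed, a setting chosen after seeing the data, 22 stayed and HNF4A and CEBPA after PD0332991 moved to 0.30 and -0.44 without changing sign. With the control of the other arm, CEBPA and PROX1 turned to -1.35 and -0.19 in CDK4/6 KD, and FOXA1, CEBPA and PROX1 to 0.18, 1.72 and 0.41 after PD0332991; with both controls summed, CEBPA turned to -0.59 in CDK4/6 KD, and CEBPA and PROX1 to 0.44 and 0.094 after PD0332991. The median of the 8 went from 0.55 in CDK4/6 KD to -0.028 with the other control and 0.12 with both, and from -0.14 after PD0332991 to 0.42 and 0.27. In CDK4/6 KD, 0 factors were at least 2-fold higher with the other control or both, and 1 was at least 2-fold lower with the other control. With the other control, 8.04% of all genes were higher and 8.16% lower. After PD0332991, CEBPA (3.30) and ONECUT1 (4.32) were at least 2-fold higher with the other control, and ONECUT1 (2.25) with both. With the whole interval past 2-fold, 1 factor remained higher in CDK4/6 KD and 1 lower between the controls. At 1.5-fold, 1 was lower after PD0332991 (15.1% of all genes). Shares of all genes are not given for PD0332991 with the other control, for both controls or for whole intervals. Those counts are therefore not read as a result about the factors. Counts over all genes depended on the filter: with none, 3005 were at least 2-fold higher and 2060 lower in CDK4/6 KD, 2814 and 2036 after PD0332991, and 1909 and 2372 between the controls, against 1252 and 1037, 1007 and 949, and 705 and 883. With at least 50 reads there were 632 and 676 in CDK4/6 KD, 406 higher after PD0332991, and 311 and 465 between the controls. No paired analysis was possible because each group had 1 library. Changes of direction followed from the control used. The control of the other arm also differs in transfection, so these settings are not equal estimates of the effect of inhibition. The causes of the control libraries' difference were not tested. ONECUT1, on 23 to 86 reads per library, had the widest intervals.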
